A study of Mus musculus with 10 samples.

Results

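Reelin neurons are the cells that the authors' annotation of this mouse hippocampus data set names by the protein reelin. They were taken by that name alone, and they form the whole of cluster 19. The class holds 424 of 68914 annotated cells, which is 0.615% of them, and 1 of 16 cell classes. The deposited table gives a class, a cluster and a map position for each cell and holds no gene values, so the level of Reln, the gene behind the name, could not be set against the label.

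The animals were wild-type (WT) C57BL/6 males aged 11 weeks, given injections into the left and right hippocampus and sampled after 3 days, and the 10 libraries are read as 1 mouse each. The groups received vehicle alone (n = 4), NfL (neurofilament light chain) in full length (FL-NfL, n = 3) or its coiled-coil portion (CC-NfL, n = 3), both proteins at 1 mg/ml. Neurofilament light chain is a structural filament protein of axons, and the comparisons ask how brain cells respond when it reaches them from outside. Every mouse was injected and no group received an unrelated protein, so these data hold no uninjected level and no level after another protein.

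Reelin is a large glycoprotein that neurons secrete. It binds the lipoprotein receptors ApoER2 (Lrp8) and VLDLR (Vldlr), which pass the signal on through the adaptor Dab1. In the developing brain it guides migrating neurons to their layers, and in the adult hippocampus it modulates synapses. Cells known to express it there are Cajal-Retzius cells, which lie in the outermost layer along the hippocampal fissure and largely disappear after birth, and subsets of GABA-releasing interneurons. The name of the class does not say which of these it holds.

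Libraries held 5434 to 17837 barcodes, of which 3150 to 14141 were annotated cells, and these annotated cells are the depth behind each share. The labels name batches b1 (6 libraries) and b2 (4 libraries), and each group has libraries in both. Vehicle 4 and FL-NfL 1 stand apart with 1 Reelin neuron each, so results are given with and without them. A share counts cells that survived dissociation and the sort for live cells, so a loss of cells during preparation and a loss in the tissue cannot be told apart. Of the 424 Reelin neurons, 10 carry a barcode sequence that also occurs in another library, 5 of them in an annotated cell there, and 0 share one with another Reelin neuron. Among all 108266 barcodes, 1414 sequences occur in more than 1 library.

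Reelin neurons were present in every library, at 13 to 109 cells in 8 of them and at 1 cell in Vehicle 4 and FL-NfL 1. Vehicle libraries 1, 2, 3 and 4 held 45, 32, 109 and 1 Reelin neurons, which is 1.16%, 0.973%, 1.12% and 0.0114% of their annotated cells. FL-NfL libraries 1, 2 and 3 held 1, 32 and 40, or 0.0237%, 1.02% and 0.353%. CC-NfL libraries 1, 2 and 3 held 13, 77 and 74, or 0.301%, 1.28% and 0.523%. The highest share was thus in a CC-NfL library and the lowest in a vehicle library, and the 3 groups overlap. With every library the SD was 0.542 in vehicle (n = 4), 0.505 in FL-NfL (n = 3) and 0.512 in CC-NfL libraries (n = 3), in percent of annotated cells. Without Vehicle 4 and FL-NfL 1, the shares were 1.08% ± 0.0987 in vehicle (n = 3) and 0.684% ± 0.469 in FL-NfL libraries (n = 2).

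The counts in Vehicle 4 and FL-NfL 1 were far below the number their depth would give at the share of the rest of their group. Vehicle 4 had 8800 annotated cells, and at the pooled share of the other vehicle libraries (1.10%) it would have held 96.7 Reelin neurons where 1 was found. The exact (Clopper-Pearson) 95% interval of its share runs from 0.000288% to 0.0633%. FL-NfL 1 had 4220 annotated cells and would have held 21.0 at the pooled share of the other FL-NfL libraries (0.497%), and the interval of its share runs from 0.000600% to 0.132%. Intervals of both libraries lie wholly below the lowest share of any other library, the 0.301% of CC-NfL 1 (interval 0.160% to 0.514%). These intervals cover counting error only. The numbers at the share of the rest of a group are rough, since other libraries missed theirs in both directions. CC-NfL 1 held 13 where that share would give 32.4, and FL-NfL 2 held 32 where it would give 8.31. The annotated share of barcodes was 80.5% in Vehicle 4 and 28.7% in FL-NfL 1, the latter the lowest of the 10 libraries. This share followed batch, at 28.7% to 58.0% in b1 and 79.3% to 82.7% in b2.

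**Figure D1:**
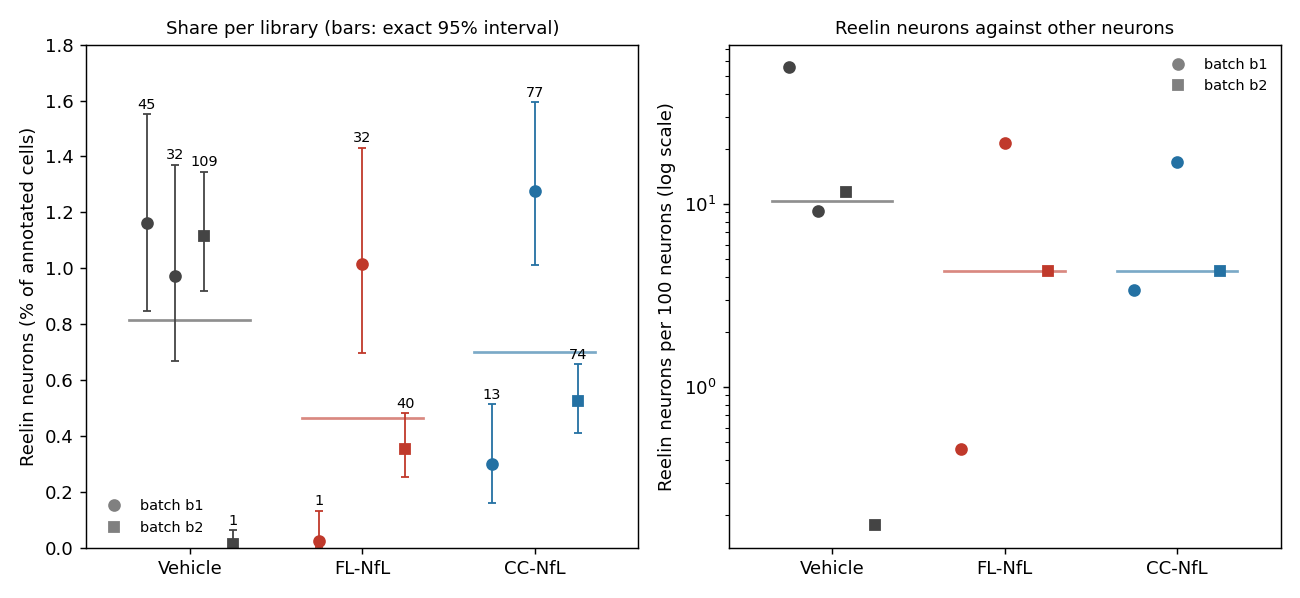
Left, Reelin neurons as a percentage of annotated cells in each library with exact 95% intervals and the number of cells above each point; horizontal lines are group means. Right, Reelin neurons per 100 neurons on a log scale, with group medians as lines. Circles are batch b1 and squares batch b2. Vehicle 4 and FL-NfL 1, with 1 Reelin neuron each, lie far below the other 8 libraries in both panels.

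FL-NfL against vehicle asks whether the whole protein is followed by a change in Reelin neurons. Their mean share was 0.816% ± 0.542 in vehicle libraries (SD, n = 4) and 0.464% ± 0.505 in FL-NfL libraries (n = 3). The log2 odds ratio, the log2 ratio of the odds that a cell is a Reelin neuron, came to -0.90 in limma over all classes with batch as a term. Its SE was 1.68 and its 95% interval ran from -4.74 to 2.94, with an adjusted limma p of 0.993. In this contrast limma called 12.5% of the 16 classes (2, macrophages and other immune cells), and Reelin neurons were not among them. The exact permutation test of the percentages gave p = 0.4, or 0.8 after adjustment over 4 contrasts. Both p-values set the difference against the spread between these libraries, which limma estimates with information shared over the 16 classes. In batch b1 the means were 1.07% and 0.520%, and in batch b2 0.564% and 0.353%, the last from 1 library. Without Vehicle 4 and FL-NfL 1 the estimate was -0.77 (SE 0.72, adjusted p = 0.982). It was -2.22 without Vehicle 4 alone (adjusted p = 0.469) and 0.65 without FL-NfL 1 alone (adjusted p = 0.999).

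CC-NfL against vehicle asks the same of the coiled-coil portion. Their mean share in CC-NfL libraries was 0.701% ± 0.512 (n = 3). The log2 odds ratio came to 0.44 in limma (SE 1.68, from -3.39 to 4.28 at 95%, adjusted p = 0.968), although the mean percentage was lower than after vehicle. Limma called 0% of the 16 classes here. Before adjustment 3 classes had a limma p below 0.05, and a quasi-binomial model called 0. The percentages gave an exact permutation p of 0.8, before and after adjustment. Batch b1 had means of 1.07% (vehicle) and 0.789% (CC-NfL), and batch b2 had 0.564% and 0.523%, the last from 1 library. The sign of the estimate turned without Vehicle 4, to -0.88 (SE 1.15, adjusted p = 0.826), and was the same -0.88 with the replicate block, in which Vehicle 4 has no partner (adjusted p = 0.552).

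FL-NfL and CC-NfL did not differ past the threshold. Limma put their log2 odds ratio at -1.34 with SE 1.78, a 95% interval from -5.40 to 2.72 and an adjusted p of 0.918. It called 0% of classes (0 of 16). Before adjustment 1 class had a limma p below 0.05, and the quasi-binomial fit called 0. The exact permutation p of the percentages was 0.6, or 0.8 after adjustment, in a design of 3 against 3 that allows no p below 0.1. In same-numbered libraries, which also share a batch, the share was lower after FL-NfL in 3 of 3 pairs. With the replicate block the estimate was again -1.34, with SE 0.87 (limma, adjusted p = 0.529). Unpaired, it was 0.11 (SE 0.72) without Vehicle 4 and FL-NfL 1, and 0.33 without FL-NfL 1 alone. Both proteins together against vehicle gave -0.23 in limma (SE 1.42, from -3.48 to 3.03 at 95%, adjusted p = 0.930), in a contrast where 12.5% of classes were called, again macrophages and other immune cells. Without Vehicle 4 and FL-NfL 1 it was -0.82 (SE 0.58, from -2.13 to 0.48 at 95%, limma, adjusted p = 0.747). With all 10 libraries and batch as a term, the interval of each of these 4 contrasts reached down to -3.39 or lower and up to 2.72 or higher. Large changes in either direction thus lie within the error of that fit. The sign for both proteins turned without Vehicle 1, 2 or 3, FL-NfL 1 or CC-NfL 1, with values up to 0.49.

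**Figure D2:**
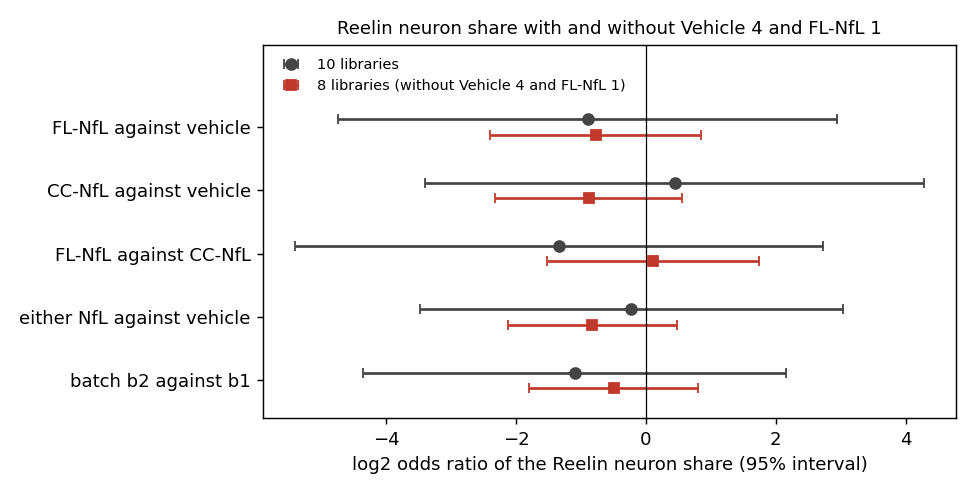
Log2 odds ratio of the Reelin neuron share with its 95% interval for 4 group contrasts and for batch b2 against b1, from all 10 libraries (circles) and from 8 libraries without Vehicle 4 and FL-NfL 1 (squares). All intervals include 0, and those from 8 libraries are shorter.

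Reelin neurons made up 0.792% ± 0.507 of cells in batch b1 (n = 6) and 0.501% ± 0.462 in batch b2 (n = 4). Depth followed batch, with 3150 to 6025 annotated cells a library in b1 and 8800 to 14141 in b2. The log2 odds ratio of b2 against b1 was -1.09 (limma, SE 1.42, adjusted p = 0.742), and 0.23 without Vehicle 4. With all barcodes in the denominator it was -0.33 (limma, SE 1.47, adjusted p = 0.882). Limma called 6.25% of classes between batches (1 of 16, VSMC, read as vascular smooth muscle cells). The exact permutation p of the percentages was 0.405. One near-empty library was in each batch.

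Set against the other neurons of the same library, Reelin neurons of the 3 groups again overlapped. Vehicle libraries 1 to 4 held 55.6, 9.14, 11.6 and 0.177 Reelin neurons per 100 neurons. FL-NfL libraries 1 to 3 held 0.461, 21.6 and 4.30, and CC-NfL libraries 3.39, 16.9 and 4.32. The high ratio of Vehicle 1 came with few neurons, 81 cells or 2.09% of its annotated cells against 4.70% to 12.1% in the other libraries. The mean log2 ratio differed by -0.65 between FL-NfL and vehicle, by 0.01 between CC-NfL and vehicle, by -0.66 between the proteins and by -0.32 between both proteins and vehicle. Exact permutation p-values were 0.8, 1, 0.9 and 0.83, each 1 after adjustment. As a share of the neuronal lineage (Reelin neurons, neurons and NPC, read as neural progenitor cells), the class made up 5.41% ± 3.76 in vehicle, 4.97% ± 6.46 in FL-NfL and 5.03% ± 5.47 in CC-NfL libraries. FL-NfL 2 at 12.3% and CC-NfL 2 at 11.3% held the highest shares of the lineage.

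Leaving immune cells out of the denominator did not separate the groups either. Of cells other than microglia, macrophages and other immune cells, the vehicle libraries held 1.23% ± 0.814 Reelin neurons (n = 4), the FL-NfL libraries 0.807% ± 0.935 (n = 3) and the CC-NfL libraries 1.17% ± 0.922 (n = 3). The log2 odds ratios with that denominator were -0.76 for FL-NfL (adjusted p = 0.924) and 0.51 for CC-NfL (adjusted p = 0.971).

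The spread of Reelin neurons between libraries was set beside that of the other classes, as a description. Around each group's pooled share, the chi-square of the cell counts per degree of freedom was 27.1, and it was 4.54 or more in each of the 16 classes, where counting error alone gives about 1. Reelin neurons were at place 8 of 16, and at place 13 by number of cells. This measure grows with the number of cells of a class, and VECA, VLMC and VSMC, the classes with fewer cells than Reelin neurons, had 12.7, 5.12 and 9.48. Without Vehicle 4 and FL-NfL 1 the value fell to 13.9. Relative to its mean, the share had an SD of 72.0% over the 10 libraries, place 5 of 16, but of 46.1%, place 9 of 16, without Vehicle 4 and FL-NfL 1. Neurons as a class had 40.0% and pericytes 37.6% over the 10 libraries, and 40.6% and 32.7% without Vehicle 4 and FL-NfL 1.

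**Figure D3:**
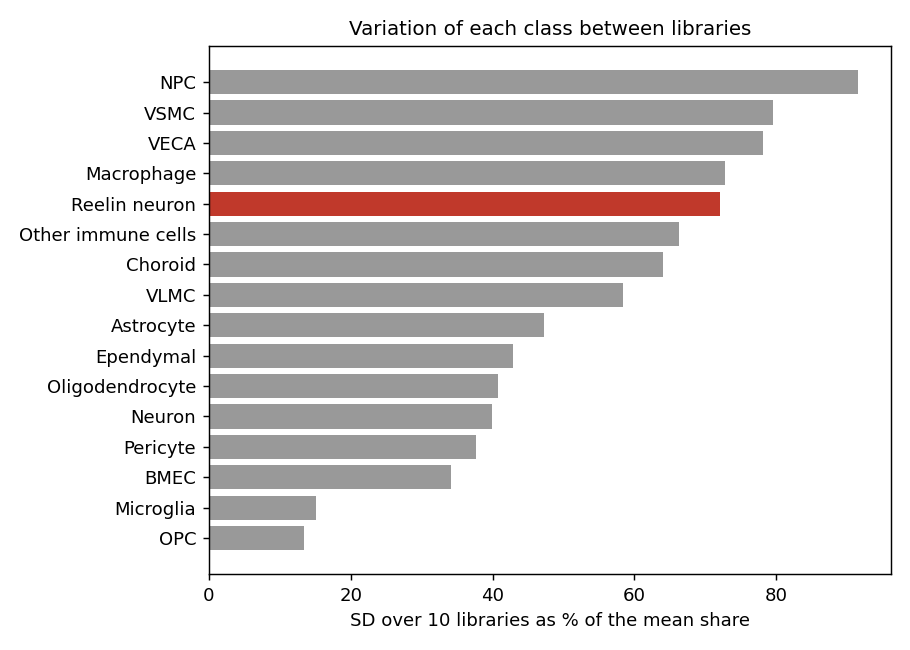
SD of each class's share over the 10 libraries as a percentage of its mean share. Reelin neurons (coloured bar, 72.0%) are place 5 of 16, after NPC, VSMC, VECA and macrophages; without Vehicle 4 and FL-NfL 1, not drawn here, they had 46.1% and place 9.

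Over libraries, the share of Reelin neurons followed by rank that of choroid cells and of pericytes, 2 of 15 classes compared (13.3%). Choroid cells, whose name refers to the choroid plexus that makes cerebrospinal fluid in the ventricles, made up 15.4%, 12.1% and 11.1% of Vehicle 1, Vehicle 3 and FL-NfL 2, and 2.93% and 2.87% of the near-empty Vehicle 4 and FL-NfL 1. Spearman's rho of the log2 odds was 0.82 (n = 10 libraries, permutation p = 0.00580, adjusted p = 0.0435 over 15 classes), and Pearson's r was 0.70 (permutation p = 0.0128, adjusted p = 0.192). Vehicle 2 departed from the pattern, with 0.973% Reelin neurons and 3.47% choroid cells. CC-NfL 1 and FL-NfL 3 had nearly as few choroid cells as the near-empty libraries, 3.28% and 3.60%, with 0.301% and 0.353% Reelin neurons. Pericytes, contractile cells that wrap capillaries, had the same rho of 0.82 (permutation p = 0.00577, adjusted p = 0.0435) and an r of 0.65 (permutation p = 0.0379, adjusted p = 0.285). They made up 1.52% to 1.55% of Vehicle 1, Vehicle 2 and CC-NfL 2, and 0.875% and 0.474% of Vehicle 4 and FL-NfL 1. CC-NfL 3 and CC-NfL 1 had similar pericyte shares to these last libraries, 0.870% and 0.509%, with 0.523% and 0.301% Reelin neurons. The near-empty libraries were thus not set apart by their pericytes or choroid cells.

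Both relations passed by rank only, and most alternatives ended the call. With all 10 libraries it was lost with 1 cell added in place of 0.5 (adjusted permutation p = 0.0536 for both). As centred log ratios rho was 0.61 for choroid cells and 0.66 for pericytes (n = 10, adjusted permutation p = 0.330 and 0.327), and with all barcodes in the denominator 0.79 and 0.72 (0.127 and 0.173, by permutation). Without the 2 libraries farthest from the median Reelin value, which are Vehicle 4 and FL-NfL 1, choroid cells had r = 0.65 and rho = 0.67 (n = 8, exact permutation p = 0.0780 and 0.0831). Pericytes had r = 0.79 and rho = 0.81 (n = 8, exact permutation p = 0.0149 and 0.0218), and neither relation passed adjustment. Within batch b1 rho was 0.83 for choroid cells and 0.89 for pericytes (n = 6, exact permutation p = 0.0583 and 0.0333), and batch b2 holds 4 libraries, too few for a value. VECA, a class that the annotation does not spell out, came next with rho = 0.65 (permutation p = 0.0483, adjusted p = 0.242). The lowest values were those of NPC (-0.47), astrocytes (-0.44) and oligodendrocytes (-0.33), with adjusted permutation p-values of 0.614, 0.614 and 0.649. Neurons had a rho of -0.08 (permutation p = 0.841, adjusted p = 0.841). Shares of 1 library sum to a fixed total and are not independent.

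**Figure D4:**
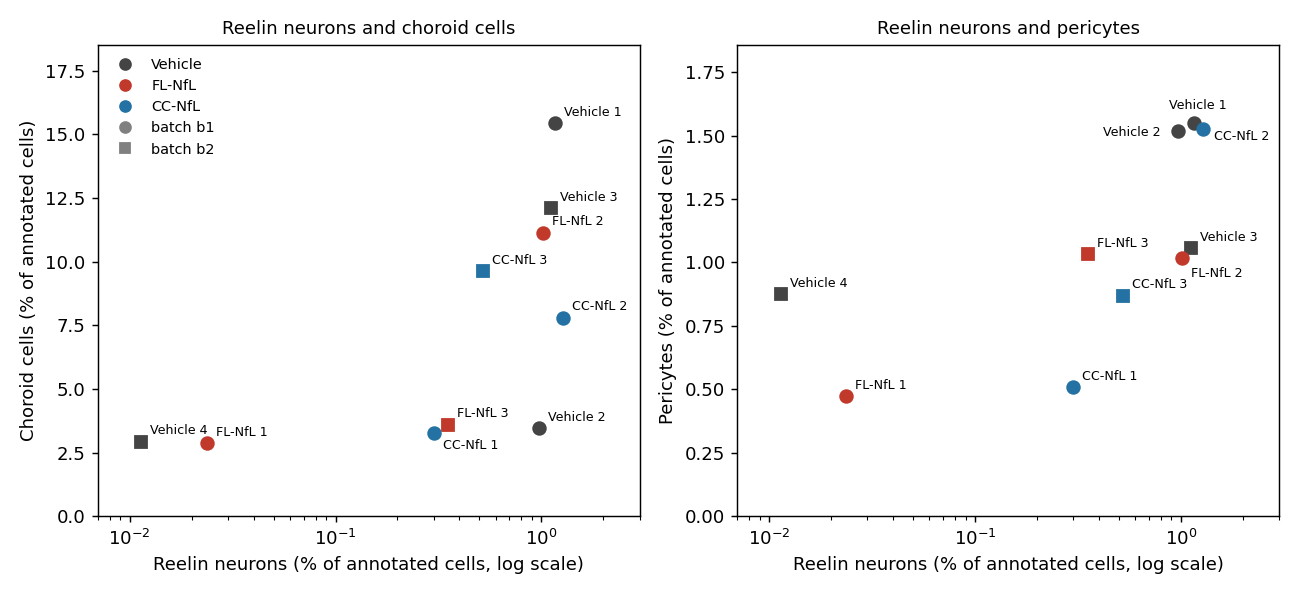
Percentage of Reelin neurons (log scale) against the percentage of choroid cells (left) and of pericytes (right) in each of 10 libraries. Vehicle 4 and FL-NfL 1 are at the far left, and the libraries richest in choroid cells lie at about 1% Reelin neurons.

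On the authors' t-SNE map, which places cells of similar expression near each other, Reelin neurons formed 1 closed island. Among the 30 nearest cells of every Reelin neuron, 12720 of 12720 places were taken by Reelin neurons, so there is no neighbouring class to name. The island measures 1.78 by 3.68 map units on a map of 69.9 by 67.4. Its cells lie 0.0393 units (median) from the nearest Reelin neuron and at least 3.44 from any other cell. The nearest cell of another class was a choroid cell of cluster 18 for 295 of them and a macrophage for 129. Clusters and map rest on the same gene values and distances between islands of a t-SNE map are no measure of likeness, so this describes the island and tests nothing.

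Within the island, nearly all Reelin neurons of FL-NfL 2 lay at one end, and those of FL-NfL 3 were spread over its length. The median position on axis 2 was -28.5 in FL-NfL 2 and -29.6 in FL-NfL 3. It was -30.7, -30.3 and -30.5 in vehicle libraries 1 to 3 and -30.5, -30.5 and -30.7 in CC-NfL libraries 1 to 3. Both FL-NfL libraries thus lay above the 6 others. Among the 106 Reelin neurons highest on axis 2, FL-NfL 2 had 29 of its 32 cells (90.6%, exact 95% interval 75.0% to 98.0%) and FL-NfL 3 had 20 of 40 (50.0%, 33.8% to 66.2%). Vehicle libraries 1 to 3 had 15.6%, 25.0% and 21.1% of their cells there, and CC-NfL libraries 0%, 7.79% and 16.2%. The share in CC-NfL 1, 0 of 13 cells, has an exact interval up to 24.7%. The single cell of FL-NfL 1 was among these and that of Vehicle 4 was not. In all, 50 of 73 FL-NfL cells (68.5%), 38 of 187 vehicle cells (20.3%) and 18 of 164 CC-NfL cells (11.0%) were among them. The intervals cover counting error only and take the cells of a library as independent. The axis and the limit were chosen after the map was seen, so this comparison has no test.

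The distance of a library's cells from the centre of the island was compared in the 8 libraries with at least 10 Reelin neurons. The centre was the median position of all 424 Reelin neurons, 351 of them vehicle or CC-NfL cells and 73 FL-NfL cells. It rests mostly on the vehicle and CC-NfL cells, so a difference in position tends to show as a larger FL-NfL distance. The median distance was 1.85 and 1.37 map units in FL-NfL 2 and 3, 0.851, 0.756 and 0.931 in vehicle libraries 1 to 3, and 0.654, 0.818 and 0.897 in CC-NfL libraries 1 to 3. Both FL-NfL values exceed all others. The means differed by 0.76 between FL-NfL and vehicle and by 0.82 between FL-NfL and CC-NfL, each at p = 0.1 by exact permutation, the lowest value possible with 2 against 3 libraries, and 0.4 after adjustment. CC-NfL and vehicle differed by -0.06 (exact permutation p = 0.6, adjusted p = 1), and both proteins together and vehicle by 0.27 (exact permutation p = 0.464, adjusted p = 1). Without FL-NfL 2 the last difference was 0.09.

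**Figure D5:**
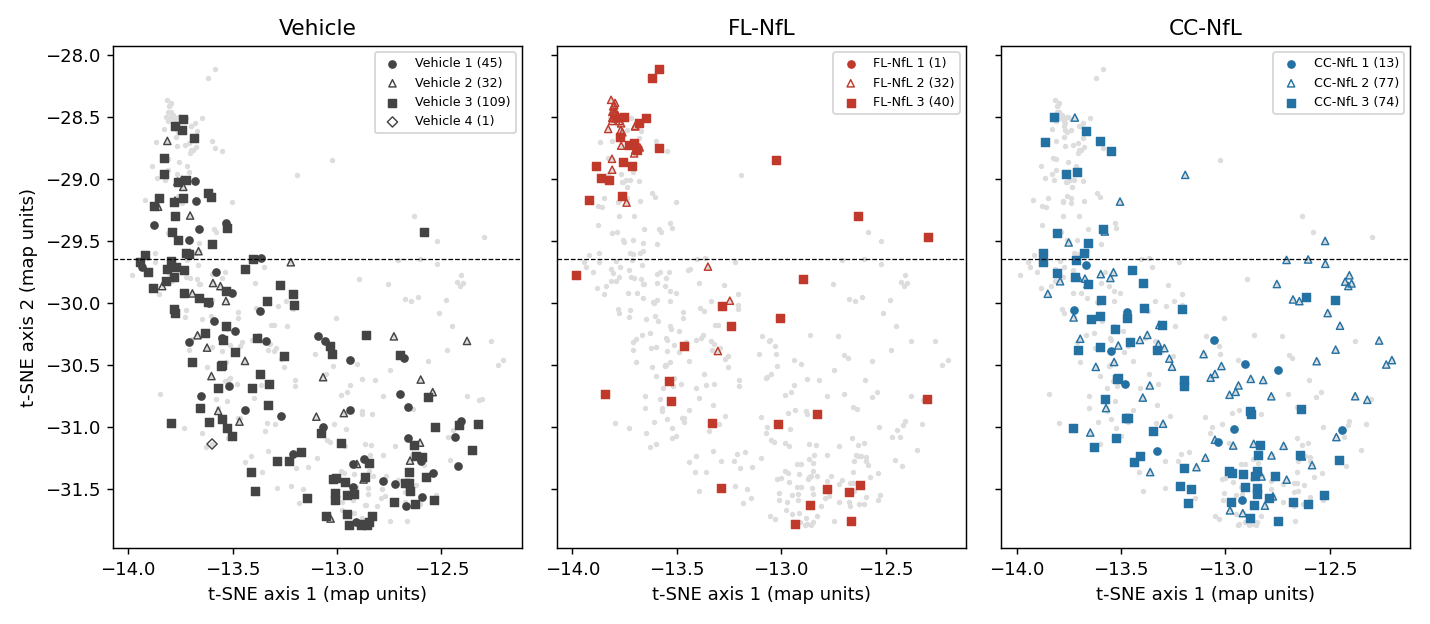
Positions of Reelin neurons on the authors' t-SNE map (axes in map units), 1 panel per group, with all 424 cells in pale grey; marks show libraries with their number of cells. The dashed line bounds the 106 cells highest on axis 2, which include 29 of 32 cells of FL-NfL 2 and 20 of 40 of FL-NfL 3 but at most 25.0% of the cells of any vehicle or CC-NfL library with 10 cells or more.

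The mixing of libraries within the island was compared between groups. For each Reelin neuron the 10 nearest Reelin neurons were taken, and the log2 ratio of observed to expected neighbours from another library had a mean of 0.26 where both libraries were of 1 group and of -0.69 where they were not. The difference of 0.95 had an exact permutation p of 0.0222 (one-sided, groups permuted within batch, smallest possible 0.0111) and an adjusted p of 0.0508 over 16 classes, so it did not pass with 10 neighbours, though it did with 5 and with 20. By the same test 37.5% of the classes passed (6 of 16). Among them were choroid cells (difference -0.05) and OPC, read as oligodendrocyte precursors (-0.02). Permuted differences thus did not centre on 0, and a pass alone does not mean that libraries of 1 group lie together. The value of Reelin neurons rests largely on FL-NfL 2, whose cells had 2.97 (log2) more neighbours from their own library than expected. The other 7 had -0.34 to 0.90. Without FL-NfL 2 the difference was 0.23 (exact permutation p = 0.111). In 14 other classes the same excess of FL-NfL 2 ran from -0.36 to 1.59 with a median of 0.63, and it was the highest of all libraries in 1 of them. The part of this library in the position of the FL-NfL cells was not tested beyond these values.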

How the data were processed

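Droplet single-cell libraries (3′ chemistry, per the labels' protocols) were processed with Cell Ranger 6.0.1 against GRCm38, per the submitters' processing notes. The authors deposited 1 table of cell classes, cluster numbers and t-SNE positions (scores with no unit). Filters, clustering, naming rules and treatment of doublets are not stated in the sources used. The table and the labels gave the same condition and batch for each of the 68914 annotated cells, and 39352 barcodes without annotation were left out of shares. The spelling of 1 class name (pericytes) was corrected.

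The log2 odds of each class, with 0.5 cells added, entered a limma fit (version 3.58.1, R 4.3.3) on 10 libraries, whose terms were group and batch. Every class (16) averaged 10 or more cells a library. P-values were adjusted by the Benjamini-Hochberg method over classes, and an adjusted p under 0.05 was called. Single values were compared by exact permutation of libraries (Python 3.11.15), two-sided unless stated, adjusted over 8 tests (ratio to neurons and map distance in 4 contrasts). Relations used 100000 permutations for 10 libraries and all permutations for fewer. Classes named are Reelin neurons, neurons, NPC and those with the 3 highest and 3 lowest Spearman values; others are named as background or by their values.

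Same-numbered libraries deviated together from their group means over the classes in 2 of 3 contrasts of groups, with correlations of 0.16 to 0.41 for CC-NfL and vehicle, 0.20 to 0.54 for FL-NfL and CC-NfL, and -0.13, -0.05 and 0.35 for FL-NfL and vehicle. Between differently numbered libraries the correlations were -0.44 to 0.30, -0.41 to 0.02 and -0.69 to 0.67, in the same order. Some of these exceeded same-numbered values for CC-NfL and vehicle, so the pairing is unsure there. Same-numbered libraries also share a batch, which was not taken out of the deviations. Differently numbered libraries within b1 had -0.05 and -0.17 for CC-NfL and vehicle, and -0.41 and -0.36 for FL-NfL and CC-NfL. In b2, Vehicle 4 and CC-NfL 3 had 0.28. Deviations cancel out within a group, so high same-numbered values lower the others. The part of batch was not tested. The replicate number was read as pairing for CC-NfL with vehicle and for FL-NfL with CC-NfL alone. This reading came from the same class shares, Reelin neurons included, to which the replicate block was then applied. The cell class, its comparisons and the tests were chosen with earlier results of these data known.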

Additional observations from a re-analysis of the deposited data

Results flagged for a closer look

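Of 10 values checked in the 4 vehicle libraries, 3 had 1 library far from the others, which chance alone gives in about 1 in 20 groups. Vehicle 4 was far below the rest in its Reelin neurons, both as a percentage (0.0114% against 0.973% to 1.16%, with a gap to the nearest library of 0.836 of the whole range) and as log2 odds (0.959 of the range). These are the same cells on another scale. Vehicle 1 was far above the rest in NPC, with 16.8% of its cells against 1.82% to 2.98% (0.923 of the range). Vehicle 1 also held the fewest neurons, at 2.09% of its cells. FL-NfL 1, the other library with 1 Reelin neuron, belongs to a group of 3, in which no such check was made.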

How the results depend on the processing

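No comparison of the Reelin neuron share passed the threshold under any alternative run, with adjusted limma p-values of 0.192 to 0.999, and signs turned often. For FL-NfL against vehicle the log2 odds ratio turned to 0.86 without the 3 libraries numbered 1, and leaving out 1 library at a time gave -2.22 to 0.65. For CC-NfL against vehicle it turned to -0.23 in a quasi-binomial model, -0.0044 on the arcsine scale, -0.77 in batch b1 and -0.88 without both libraries with 1 Reelin neuron (an alternative chosen after seeing the data), and ran from -0.88 to 1.14 with 1 library left out. For FL-NfL against CC-NfL it was 0.11 without both and -2.30 to 0.33 with 1 left out. For both proteins against vehicle it was 1.08 without the libraries numbered 1 and -1.55 to 0.49 with 1 left out, and for batch it was -1.89 to 0.23.

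With the replicate block the log2 odds ratio was -2.22 for FL-NfL against vehicle (limma, adjusted p = 0.192), -0.88 for CC-NfL (0.552), -1.34 between proteins (0.529) and -1.55 for both (0.408). The block changed no call on Reelin neurons, and the numbers do not pair FL-NfL with vehicle.

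Per neuron, CC-NfL against vehicle turned to -0.076 with 1 cell added and to -1.51 with the replicate block and without both libraries, and FL-NfL against CC-NfL to 0.61 without both. With 1 library left out the ranges were -2.18 to 0.62 (FL-NfL), -1.51 to 1.06 (CC-NfL), -1.88 to 0.61 (between proteins) and -1.84 to 0.73 (both). The map distance of CC-NfL against vehicle ran from -0.11 to 0.011, that of FL-NfL against vehicle from 0.52 to 1.00, between proteins from 0.58 to 1.06 and for both from 0.089 to 0.39.

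Map mixing passed with 5 neighbours (1.04), with 20 (0.85) and with at least 5 cells per library (0.95), which tests the other classes on other libraries, and with 1 library left out it ran from 0.23 to 1.17 with adjusted permutation p-values of 0.0762 to 0.296. The relation with choroid cells no longer passed with 1 cell added (0.82), as a centred log ratio (0.61), over all barcodes (0.79), without the 2 farthest libraries (0.67) and in batch b1 (0.83). That with pericytes did not pass under the same alternatives (0.81, 0.66, 0.72, 0.81 and 0.89). With 1 library left out these were 0.75 to 0.93 and 0.77 to 0.87. The call was then lost in 8 of 10 runs for choroid cells and 9 of 10 for pericytes (adjusted permutation p up to 0.191 in both). Oligodendrocytes turned to 0.20 in batch b1. The chi-square per degree of freedom was 13.9 without both libraries and 15.7 to 31.9 with 1 left out. Counting error is widest, relative to the share, in Vehicle 4 and FL-NfL 1, with 1 Reelin neuron each. The cause of these shifts was not tested.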

Other observations

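Reelin neurons per 100 choroid cells were close in several libraries of different groups. The ratio was 9.22 in Vehicle 3, 9.12 in FL-NfL 2, 9.80 in FL-NfL 3 and 9.15 in CC-NfL 1, and 7.53 in Vehicle 1. It was higher in Vehicle 2 (28.1) and CC-NfL 2 (16.4), lower in CC-NfL 3 (5.44), and lowest in Vehicle 4 (0.388) and FL-NfL 1 (0.826), where choroid cells numbered 258 and 121. Vehicle 4 and FL-NfL 1 therefore held few Reelin neurons also for their number of choroid cells.

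Among single clusters, given as a description with no test and looked at after the classes, the share of Reelin neurons followed those of cluster 31, which is all pericytes (Spearman's rho 0.82 over 10 libraries), of cluster 14 (0.73), a cluster of 690 NPC, of the choroid clusters 5 and 18 (0.73 and 0.72) and of the oligodendrocyte cluster 13 (0.71, 453 cells). The third choroid cluster, 12, had 0.12. Cluster 14 thus had a positive value where the whole NPC class had -0.47. Its share was lowest in Vehicle 4 (0.580%) and FL-NfL 1 (0.592%) and highest in Vehicle 2 (1.91%). Without Vehicle 4 and FL-NfL 1 the rho of cluster 14 was 0.48, and clusters 31, 5, 18 and 13 had 0.81, 0.62, 0.62 and 0.64. The lowest value over 10 libraries was that of the neuron cluster 7 (-0.54, 466 cells), which was -0.83 without Vehicle 4 and FL-NfL 1. Neuron clusters 3 and 17 had -0.0061 and -0.21 over 10 libraries, and -0.048 and -0.45 without Vehicle 4 and FL-NfL 1.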
